A study of Sus scrofa with 22 samples.

Results

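Insulin and the insulin-like growth factors signal through a small set of genes, and 10 of them are described here in pig foliate papillae and in organoids grown from them: the ligands IGF1 and IGF2, the receptors INSR and IGF1R, the receptor substrates IRS1 and IRS2, and the binding proteins IGFBP2, IGFBP3, IGFBP5 and IGFBP6. All 10 were found by symbol among the 27376 genes counted in 16 libraries and among the 29850 counted in the other 6. The genes were chosen by their place in this pathway, as receptors, substrates, ligands and carriers for a culture medium that holds insulin. The list was drawn up with earlier results of these counts known, among them the higher IGF1 level without FGF10 and the absence of INS counts. Those values are therefore descriptions, with no test, and no other p-value below is independent support for the choice of genes.

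Insulin binds the receptor INSR, and IGF1 and IGF2 bind IGF1R, with crosstalk between these closely related tyrosine kinases at high ligand levels. Both receptors phosphorylate the adaptor proteins IRS1 and IRS2, which recruit PI3 kinase and so activate AKT and mTORC1 and keep FOXO transcription factors out of the nucleus. IGF binding proteins hold IGFs in the extracellular space and lengthen their life or block their access to the receptor, and proteases release the IGFs again. Insulin is a routine supplement of epithelial culture media.

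RNA sequencing covered 22 libraries in 6 groups. Passage 1 organoids in the medium LPM came from 5 pigs and were set against foliate papillae, the taste bud folds at the side of the tongue, of these 5 pigs. A further 3 organoid cultures in LPM lacking FGF10 were set against 3 in complete LPM, and 3 organoid samples finished in the medium CQ against 3 kept in LPM. Per the labels' protocols, LPM held insulin at 10 nM and FGF10 at 100 ng/ml, with EGF, FGF2, Wnt3a, R-Spondin-2, SHH, Noggin, forskolin, prostaglandin E2, nicotinamide, N-acetyl-cysteine and the inhibitors CHIR99021, A-83-01, SB202190 and Y-27632. Its basal supplements B27 and N21 Max were insulin free, and this recipe accompanies the first 16 libraries only. Organoids for CQ spent day 0 to day 10 in LPM before the switch to CQ, which lasted until day 16 or 17. Neither abbreviation is spelled out, and the sources used here do not give the composition of CQ, its insulin included. No day is given for the LPM libraries beside CQ, so culture age and medium cannot be told apart.

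The labels call all organoids a foliate cell line and do not say which animal the organoids of the media experiments came from. The FGF10 samples are labelled biological replicates, but no animal is given, so their p-values measure the spread between these cultures only. The CQ samples carry only numbers, so their p-values measure the spread between these samples, which may be technical. RNA of papillae and of organoids was extracted with different kits, and an effect of the kit and of culture cannot be told apart. In passage 1 organoids the defining fibroblast gene DCN (0.0535 ± 0.0493 CPM) and endothelial gene CDH5 (0.00813 ± 0.0182 CPM) were near 0. Other genes of these marker lists were not: THY1 had 132 ± 45.7 CPM in organoids and 112 ± 38.4 CPM in papillae, KDR 47.4 ± 36.7 and 25.9 ± 2.43 CPM, and NOTCH3 83 ± 25.5 and 150 ± 12.9 CPM. In the organoids the epithelial keratins KRT5 (1690 ± 403 CPM) and KRT8 (2160 ± 809 CPM) were abundant. Against the label of mature taste cells, the taste cell markers summed to only 34.4 to 54.9 CPM in passage 1 organoids against 104 to 265 CPM in papillae. In all bulk comparisons below, fewer cells of a type and less RNA per cell cannot be told apart.

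Library totals were 14.67 to 27.77 M counts. CPM are counts relative to library size, scaled by TMM within each comparison, and a gene was called at an edgeR adjusted p under 0.05 over all genes tested. Levels are set beside each other between genes only as CPM per kb of gene model. In the CQ libraries, genes with 10 to 30 counts varied with a median variance of 12.7 times the mean, against 1.75 in the LPM libraries beside them, so low counts carry less information there. Organoids of pig 4 stand apart: the summed cell cycle markers were 65.9, 171, 69.5, 1040 and 206 CPM in organoids of pigs 1 to 5 and 133 to 151 CPM in papillae.

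The members lie on 6 chromosomes of Sscrofa11.1, with positions as the files give them. On chromosome 2 lie INSR (71797209 to 71939923), IGF2 (1469183 to 1496417) and, next to IGF2, the insulin gene INS (1496842 to 1498052). IGF1R is on chromosome 1 (137383623 to 137691038), and IGF1 (81762027 to 81909253) and IGFBP6 (18352884 to 18357225) are on chromosome 5. Chromosome 15 carries IRS1 (128245846 to 128307321) and the neighbouring pair IGFBP2 (118822092 to 118850985) and IGFBP5 (118861816 to 118877787). IRS2 is on chromosome 11 (76626158 to 76654639) and IGFBP3 on chromosome 18 (50002921 to 50009425). Exons of IGF1R overlap by 843 bases with those of the antisense gene PGPEP1L. Strand was ignored in the counting, so reads from this stretch cannot be told apart. PGPEP1L counts came to 6.5 to 8.52% of those of IGF1R in passage 1 organoids and 20.0 to 29.5% in papillae. These include PGPEP1L reads from outside the shared stretch, so at most this many counts are shared with IGF1R.

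INS had 0 counts in 22 of 22 libraries. With 3 counts over a group as the limit that 0 allows, this permits at most 0.0228 CPM in passage 1 organoids and 0.0346 CPM in papillae. These limits cover counting error only. Genes with 10 to 30 counts had a median variance of 4.82 times the mean in passage 1 organoids and 3.43 times in papillae.

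**Figure D1:**
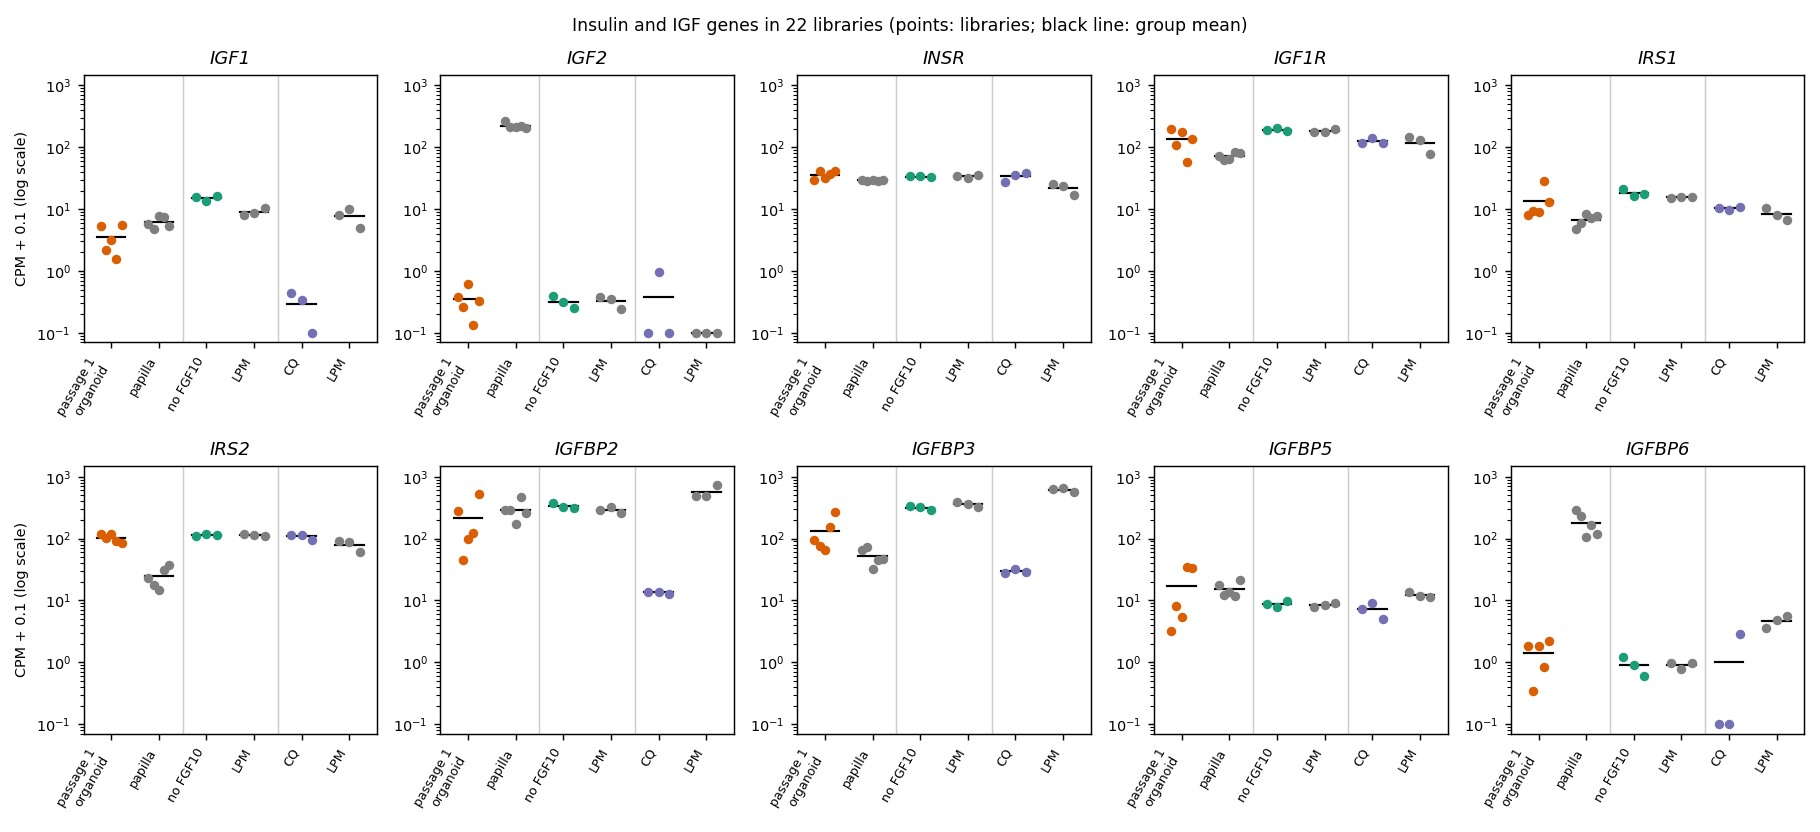
CPM plus 0.1 on a log axis for each of the 10 genes, with 1 point per library, a black line at each group mean, and each tested condition left of the group it is compared with. IGF2 and IGFBP6 stand high in papillae only, and IGF1, IGFBP2 and IGFBP3 stand low in CQ.

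Per kb of gene model, IGFBP2 and IGFBP3 had the highest means of the 10 in passage 1 organoids, and IGFBP2 and IGFBP6 in papillae. In passage 1 organoids IGFBP2 averaged 155 ± 142 CPM per kb, IGFBP3 120 ± 74.4, IRS2 16.0 ± 2.42, IGF1R 10.9 ± 4.46, INSR 3.8 ± 0.558, IGFBP6 0.868 ± 0.515 and IGF1 0.289 ± 0.152 (SD, n = 5). In papillae IGFBP2 averaged 213 ± 78.1 CPM per kb, IGFBP6 120 ± 51.8, IGFBP3 47.2 ± 14.6 and IGF2 30.6 ± 3.59, while IRS2 averaged 3.81 ± 1.44 and INSR 3.1 ± 0.0705. In CQ IGFBP3 averaged 26.6 ± 2.1 CPM per kb, and IRS2 (16.7 ± 1.56) and IGF1R (10.2 ± 1.13) lay above IGFBP2 (9.61 ± 0.415; SD, n = 3). The receptor transcript ratio leaned to IGF1R in every library. IGF1R over INSR, per kb, was 5.03, 2.01, 4.31, 1.2 and 2.52 in organoids of pigs 1 to 5, against 1.83, 1.65, 1.61, 2.24 and 2.13 in their papillae. Organoids of pigs 1 and 3 stood highest and those of pig 4 below every papilla. The ratio was 4.22 to 4.58 without FGF10 and 3.93 to 4.22 in LPM. In CQ it was 2.37 to 3.21, against 3.48 to 4.46 in the LPM libraries beside it. PGPEP1L counts came to 4.02 to 8.16% of those of IGF1R in CQ and to 10.7, 12.3 and 28.2% in these LPM libraries. Taking all PGPEP1L counts off IGF1R removes the most that the genes can share. The ratio was then 2.18 to 3.09 in CQ and 2.5 to 3.98 in LPM, and the groups overlapped. With the same removal it was 3.72 to 4.07 without FGF10 and 3.43 to 3.71 in LPM. It was 1.11 to 4.67 in passage 1 organoids and 1.13 to 1.66 in papillae.

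IRS2 exceeded IRS1 per kb in 22 of 22 libraries. The ratio of IRS2 to IRS1 was 14.6, 10.8, 13.3, 3.18 and 6.55 in organoids of pigs 1 to 5 and 4.76, 3.01, 1.75, 4.21 and 4.91 in their papillae. It lay between 5.26 and 7.19 without FGF10 and between 6.87 and 7.62 in LPM, and between 8.66 and 11.7 in CQ against 8.83 and 10.6 in LPM. These ratios are descriptions without a test.

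**Figure D2:**
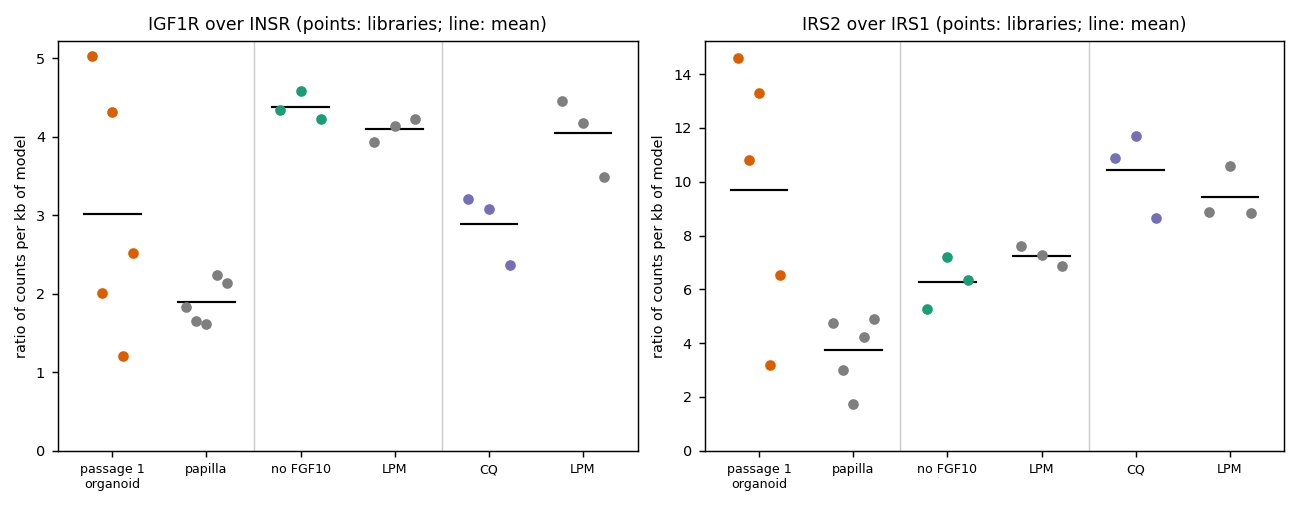
Ratio of counts per kb of IGF1R to INSR (left) and of IRS2 to IRS1 (right), 1 point per library with a line at the group mean, tested condition left of its comparison group. Passage 1 organoids spread from 1.2 to 5.03 for the receptors, while papillae stay between 1.61 and 2.24.

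The first comparison asks how the pathway in cultured organoids differs from the tissue they came from. In passage 1 organoids the substrate IRS2 was 4.2-fold higher than in papillae, and IGF1R, IRS1 and IGFBP3 were also higher. IGF2 was 916-fold lower and IGFBP6 138-fold lower, both being abundant in papillae and nearly absent from organoids. INSR was 1.22-fold higher, a call that rests on the fit chosen. IGF1, IGFBP2 and IGFBP5 did not pass the test. Of the 10 members, all tested, 5 were called higher and 2 lower, a total of 7. With the pig as a replicate block 6 were called, INSR being lost, and calls over all genes went from 11011 to 10679. Over all 16311 genes tested 32.4% were called higher and 35.1% lower, together 67.5%, so 7 of 10 is close to the background of this contrast. The members' median log2 fold change was 0.22, against -0.01 over all genes tested. Of all calls 48.0% were higher with TMM scaling and 59.6% with library size alone, which moved the median of all genes to 0.28 and left 7 members called.

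Among ligands, IGF2, the fetal growth factor that is also made by adult mesenchyme, had 0.285, 0.164, 0.527, 0.0341 and 0.23 CPM in organoids of pigs 1 to 5, against 270, 212, 215, 218 and 205 CPM in their papillae. All papillae exceeded all organoids, with 31 counts in all organoids together. The log2 fold change was -9.84 ± 0.39 (SE, edgeR adjusted p = 1.37e-08). IGF1, the growth hormone-dependent ligand, had 5.25, 2.09, 3.03, 1.46 and 5.48 CPM in the organoids and 5.68, 4.7, 7.59, 7.43 and 5.15 CPM in the papillae. The groups overlapped, with organoids lower in 4 of 5 pigs. Its log2 fold change of -0.82 ± 0.36 did not pass (edgeR adjusted p = 0.0643), and 6 of 17 alternatives called it, with adjusted p from 0.0252 to 0.193 over all of them.

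The fibroblast markers, 10 genes of which 9 were called lower, summed to 94.7 to 219 CPM in organoids and 2040 to 7490 CPM in papillae. Muscle markers summed to 0.935 to 1.93 CPM in organoids and 307 to 9240 CPM in papillae, endothelial and pericyte markers to 68 to 218 and 571 to 814 CPM, and nerve and Schwann markers to 1.52 to 16.1 and 309 to 492 CPM. Gland markers summed to 34.5 to 298 CPM in organoids and 41600 to 185000 CPM in papillae, the largest of these sums. Immune markers summed to 38.9 to 114 and 94.7 to 129 CPM. Basal epithelial markers summed to 3600 to 7370 CPM in organoids and 10200 to 13000 CPM in papillae. Simple and taste bud epithelial markers summed to 5720 to 10500 CPM in organoids and 1180 to 2050 CPM in papillae. The part of these cell types in the members' differences, those of IGF2 and IGFBP6 included, was not tested.

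Among receptors, INSR had 29.6, 40.5, 31.3, 36.4 and 41.2 CPM in organoids of pigs 1 to 5 and 29.6, 28.6, 30.0, 28.5 and 29.4 CPM in papillae. The papillae were close to each other, and organoids of pigs 1 and 3 lay at or near them. The log2 fold change was 0.29 ± 0.12 (edgeR adjusted p = 0.0438). With the pig as a replicate block the adjusted p was 0.091, and 12 of 17 alternatives lost the call, with adjusted p from 0.00338 to 0.0971. IGF1R had 196, 107, 177, 57.5 and 135 CPM in the organoids and 71.0, 61.6, 63.4, 84.1 and 82.2 CPM in the papillae. It was higher in organoids of 4 of 5 pigs and lowest of all 10 libraries in the organoids of pig 4. Its log2 fold change of 0.89 ± 0.28 passed (edgeR adjusted p = 0.0137), and with every PGPEP1L count taken off it was 1.2 (adjusted p = 0.00297, range over alternatives 0.000315 to 0.0455).

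The substrate IRS2, which is itself under FOXO control in mouse liver, had 118, 102, 120, 92.7 and 84.8 CPM in organoids and 22.7, 17.9, 14.8, 30.5 and 37.5 CPM in papillae. Every organoid library lay above every papilla, and the log2 fold change was 2.07 ± 0.24 (edgeR adjusted p = 1.94e-05). IRS1 had 7.97, 9.26, 8.92, 28.5 and 12.7 CPM in organoids and 4.69, 5.85, 8.25, 7.11 and 7.5 CPM in papillae. It was higher in organoids of 5 of 5 pigs, although organoids of pig 1 lay below the papilla of pig 3, and the organoids of pig 4 stood far above the rest. The log2 fold change of 1.01 ± 0.36 (edgeR adjusted p = 0.0249) was 0.55 without the organoids of pig 4 (0.0416). The call was lost with limma voom (0.0624) and without the papilla of pig 1 (0.057), over a range of 0.0085 to 0.0624.

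Organoids of pig 4 thus had the lowest IGF1R and IGF1 and the highest IRS1 and IGFBP5 of the passage 1 organoids. This was also the library with the highest cell cycle markers, whose part in these levels was not tested. Without it 6 members were called, IGF1R among them with a log2 fold change of 1.1 (adjusted p = 0.000315), and INSR was no longer called (0.0518). Calls over all genes then numbered 11577, against 11011 with all libraries.

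Among binding proteins, IGFBP6, a carrier with a preference for IGF2, had 1.75, 0.246, 1.71, 0.749 and 2.1 CPM in organoids and 290, 231, 104, 163 and 119 CPM in papillae. There was no overlap, and the log2 fold change was -7.1 ± 0.54 (edgeR adjusted p = 8.89e-07). IGFBP3, the main IGF carrier of blood and also a product of epithelia, had 95.3, 77.0, 65.5, 156 and 264 CPM in organoids and 64.6, 71.8, 31.9, 45.4 and 45.9 CPM in papillae. It was higher in organoids of 5 of 5 pigs, with organoids of pigs 4 and 5 the highest and those of pig 3 below the papilla of pig 2. The log2 fold change was 1.34 ± 0.38 (edgeR adjusted p = 0.00827).

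IGFBP2, which binds both IGFs and carries an integrin-binding motif, had 281, 44.5, 97.4, 121 and 531 CPM in organoids and 290, 288, 172, 468 and 255 CPM in papillae. It was lower in organoids of 4 of 5 pigs and highest of all 10 libraries in the organoids of pig 5. The log2 fold change was -0.45 ± 0.56 (edgeR adjusted p = 0.485), and -1.1 without the organoids of pig 5 (0.0617, range over alternatives 0.0617 to 0.785). IGFBP5, a matrix-bound carrier, had 3.05, 7.91, 5.23, 34.3 and 33.1 CPM in organoids and 17.6, 12.3, 13.4, 11.5 and 21 CPM in papillae. Organoids of pigs 4 and 5 lay above every papilla and the other 3 below every papilla. The difference did not pass (log2 0.14 ± 0.6, edgeR adjusted p = 0.845).

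The sum of binding protein transcripts overlapped between the groups, while the share of IGFBP6 did not. Summed per kb, IGFBP2 to IGFBP7 came to 418 to 881 CPM per kb in organoids and 521 to 750 CPM per kb in papillae. IGFBP6 made 0.0342 to 0.237% of that sum in organoids and 13.2 to 26.7% in papillae. IGFBP7, a low-affinity relative that binds insulin and matrix, made 21.3 to 73.8% in organoids and 25.9 to 46.6% in papillae. IGFBP7 itself did not pass (285 ± 97.6 CPM in organoids, 235 ± 24.5 CPM in papillae, edgeR adjusted p = 0.292), nor did IGFBP4 (20.7 ± 11.5 and 37.0 ± 7.42 CPM, 0.0547).

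**Figure D3:**
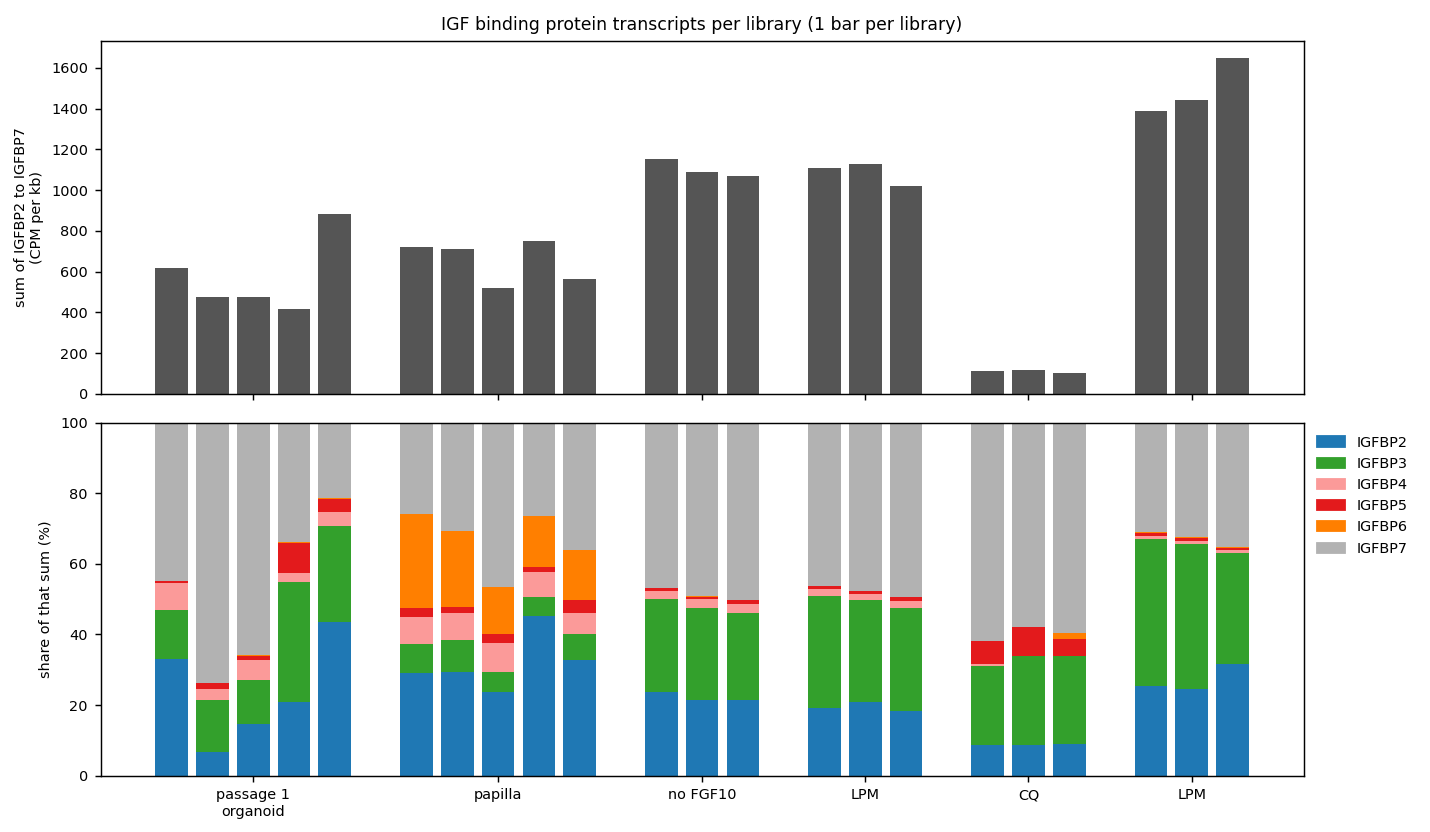
Sum of IGFBP2 to IGFBP7 in CPM per kb (top) and the share of each in that sum in percent (bottom), 1 bar per library, with each tested condition left of its comparison group. IGFBP6 has a visible share in the 5 papillae, and the sum in CQ is 104 to 115 CPM per kb against 1390 to 1650 in the LPM libraries beside it.

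Around the members, 67 of 90 tested pathway genes, or 74.4%, were called in organoids against papillae, 41 higher and 26 lower. Over all genes tested 67.5% were called, 32.4% higher and 35.1% lower, and the counts of each list below stand against that background. IGF2R, the receptor that clears IGF2, was 2.71-fold higher (237 ± 22.9 CPM in organoids, 87.3 ± 3.75 CPM in papillae, edgeR adjusted p = 6.32e-07), as was the IGF2 mRNA-binding protein gene IGF2BP2 (4.8-fold). The growth hormone receptor gene GHR was 11.9-fold lower and the acid-labile subunit gene IGFALS 4.44-fold lower, with 1 further gene of that list not passing. Of 6 genes of IGFBP proteases and their stanniocalcin inhibitors, 4 were lower, among them PAPPA2 (21-fold) and ADAM12 (12.3-fold), and STC2 was 21.8-fold higher (17.7 ± 8.8 CPM in organoids, 0.807 ± 0.623 CPM in papillae).

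Of 20 FOXO factors and targets 12 were higher and 5 lower, with a median log2 fold change of 1.01. BCL2L11, a pro-apoptotic gene, was 5.11-fold higher and the repressor gene BCL6 2.56-fold higher, while KLF15 was 20.3-fold lower and CITED2 3.84-fold lower. Of 12 lipid and glucose genes induced by insulin 9 were higher and 2 lower, with a median of 1.37. The fatty acid elongase gene ELOVL6 was 9.7-fold higher (141 ± 70.1 CPM in organoids, 14.6 ± 1.76 CPM in papillae) and hexokinase HK2 5.51-fold higher. The glucose transporter gene SLC2A4, which is abundant in muscle, was 20.7-fold lower.

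PI3K, AKT and mTORC1 genes split, with 10 higher and 8 lower of 27 and a median of 0.1. The PI3 kinase subunit gene PIK3CB was 3.98-fold higher and TBC1D4 3.25-fold lower. Receptor adaptors and inhibitors split as well, 7 higher and 5 lower of 17, with GRB2 and CBL higher (2.22-fold and 2.29-fold) and GRB14 and DOK4 lower (6.07-fold and 2.61-fold). Genes with models of at least 6 kb had a median log2 fold change of -0.11 here and those under 2 kb one of 0.16, and both receptors and both substrates have models of at least 6 kb.

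**Figure D4:**
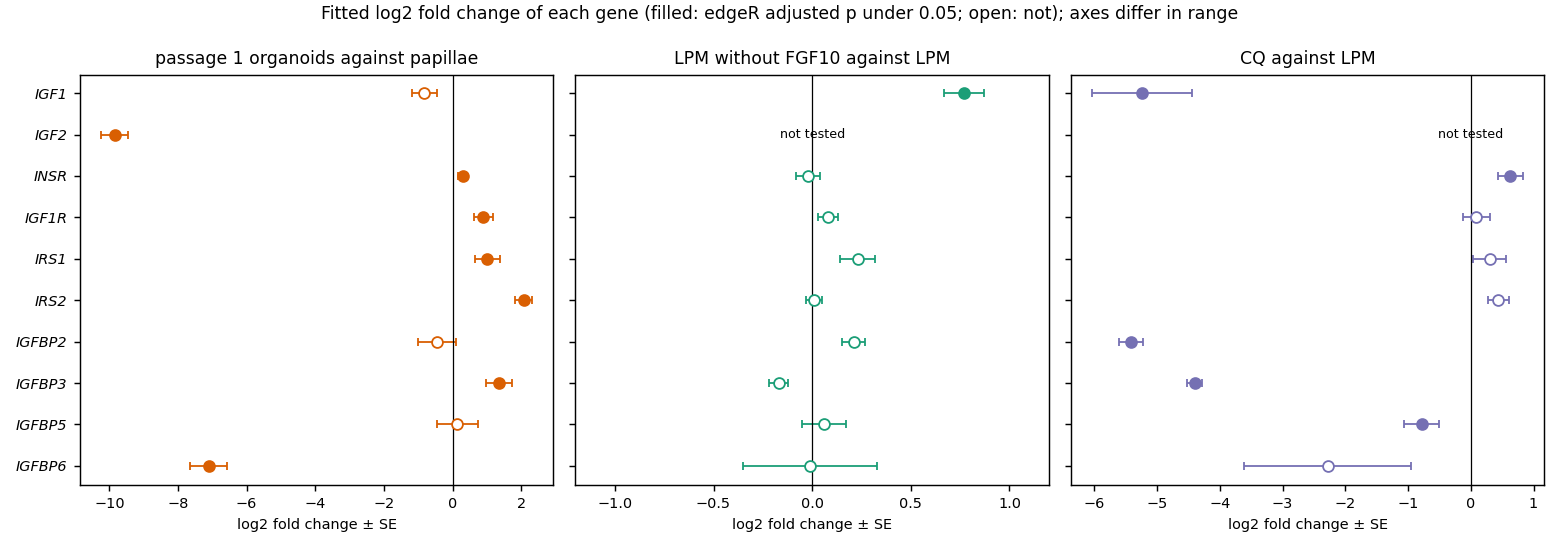
Fitted log2 fold change with an SE derived from the test for each gene in the 3 comparisons, positive values being higher in the condition named first, filled points for edgeR adjusted p under 0.05. The horizontal axes differ in range, IGF2 was not tested in either media experiment, and the filled IGF1 point of the FGF10 comparison is a description.

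The second comparison asks what FGF10 in the medium does to these genes. IGF1 was 1.71-fold higher without FGF10, a difference known when the list was drawn up and given as a description. IGF1 had 15.6, 13.6 and 16.3 CPM without FGF10 and 7.99, 8.55 and 10.2 CPM in LPM. The groups did not overlap, and the means were 15.2 ± 1.38 and 8.92 ± 1.15 CPM (SD, n = 3 each), a log2 fold change of 0.77 ± 0.1. Of the 8 other members tested 0 were called by edgeR, 0 by DESeq2 and 0 by limma voom, while 3 had an unadjusted p under 0.05 in edgeR. Over all 14262 genes tested 0.582% were called higher, 1.2% lower and 1.78% in either direction. The median log2 fold change of these 8 members was 0.03, against 0 over all genes. Calls over all genes numbered 254, and 125 without LPM replicate 2 or 128 without replicate 1 of the cultures lacking FGF10. The median variance of genes with 10 to 30 counts was 1.23 times the mean without FGF10 and 1.13 times in LPM. That is close to counting error alone, so these p-values rest on a small spread between cultures.

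IGF2 had 0.299, 0.213 and 0.151 CPM without FGF10 and 0.281, 0.258 and 0.144 CPM in LPM, and too few counts for the test. Among receptors, INSR had 33.6, 34.5 and 32.6 CPM without FGF10 and 34.8, 32.1 and 35.0 CPM in LPM (log2 -0.02 ± 0.06, edgeR adjusted p = 0.962). IGF1R had 191, 207 and 181 CPM without FGF10 and 179, 174 and 194 CPM in LPM (0.08 ± 0.05, 0.532). Both receptors overlapped between the media.

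Of the substrates, IRS2 had 112, 119 and 113 CPM without FGF10 and 118, 115 and 109 CPM in LPM (log2 0.01 ± 0.04, edgeR adjusted p = 0.969). IRS1 had 20.8, 16.2 and 17.5 CPM without FGF10 and 15.2, 15.5 and 15.6 CPM in LPM. Its groups did not overlap, but the difference did not pass the adjustment over all genes (0.23 ± 0.09, 0.242).

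IGFBP2 had 379, 323 and 317 CPM without FGF10 and 293, 326 and 260 CPM in LPM (log2 0.21 ± 0.06, edgeR adjusted p = 0.0875). IGFBP3 had 336, 318 and 295 CPM without FGF10 and 385, 357 and 328 CPM in LPM (-0.17 ± 0.05, 0.0771). Both overlapped between the media and missed the threshold, with log2 fold changes of 0.13 to 0.29 for IGFBP2 and -0.23 to -0.11 for IGFBP3 over 13 alternatives, 5 of which called IGFBP2 and 3 IGFBP3. IGFBP5 had 7.8 to 9.81 CPM without FGF10 and 7.71 to 9.01 CPM in LPM, and IGFBP6 0.503 to 1.1 and 0.688 to 0.883 CPM.

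Of the 87 tested pathway genes 0 were called by edgeR, 0 by DESeq2 and 0 by limma voom, while 11 had an unadjusted p under 0.05 in edgeR. With no filter on low counts edgeR called 2. The abundant genes of each list lay close together between the media: the lipid synthase gene FASN had 1530 ± 27.2 CPM without FGF10 and 1490 ± 35.2 CPM in LPM, IGFBP7 605 ± 0.905 and 579 ± 18.7 CPM, PTPRF, a receptor phosphatase, 1040 ± 23.3 and 1020 ± 20.9 CPM, and the FOXO target TXNIP 251 ± 19.6 and 239 ± 6.32 CPM. The ribosomal protein gene RPS6 had 965 ± 9.64 and 1000 ± 33.2 CPM, the protease gene HTRA1 39.9 ± 4.59 and 43.6 ± 2.06 CPM, and IGFALS 3.96 ± 0.807 and 3.28 ± 1.24 CPM. In simulated data with these libraries' means and sizes, 99% of genes changed by 1 log2 unit were called. Only genes with a mean above 1 CPM were changed, so the rate does not cover lower ones such as IGFBP6. Smaller changes, such as those of IRS1, IGFBP2 and IGFBP3 above, were not simulated, so this rate does not apply to them.

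The third comparison asks what finishing organoids in CQ does. In CQ the most abundant binding protein transcripts of the list were lower: IGFBP2 was 42.7-fold lower and IGFBP3 21.1-fold lower than in LPM. IGF1 was at least 9.09-fold lower, IGFBP5 1.72-fold lower and INSR 1.54-fold higher, and IGF1R, IRS1, IRS2 and IGFBP6 did not pass. Of 9 members tested 1 was called higher and 4 lower, 5 in total. Over all 13827 genes tested 23.1% were called higher, 24.8% lower and 47.9% in either direction, so the share of members called is near the background of a contrast in which many genes differ. The members' median log2 fold change was -0.78, against -0.07 over all genes. Without LPM sample 2 or LPM sample 3, 3 members were called: IGF1, IGFBP2 and IGFBP3. Calls over all genes also fell, from 6625 to 4933 without LPM sample 2 and to 6128 without LPM sample 3.

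Among ligands, IGF1 had 0.336, 0.244 and 0.0 CPM in CQ and 7.96, 9.85 and 4.78 CPM in LPM. The groups were far apart, with 9 counts in all CQ libraries and 475 in LPM. The bound of 9.09-fold takes 38.1 counts over the CQ group as the smallest amount that can be read, that is 3 counts times the variance to mean ratio given above. The fit gave a log2 fold change of -5.24 ± 0.79 (edgeR adjusted p = 0.000656). IGF2 had 0.0, 0.854 and 0.0 CPM in CQ, all of it 14 counts of 1 library and below that floor, and 0 counts in LPM, where at most 0.0464 CPM is allowed.

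Among receptors, INSR had 27.7, 35.2 and 38.4 CPM in CQ and 25.3, 23.4 and 17.0 CPM in LPM. The groups did not overlap, and the log2 fold change was 0.63 ± 0.2 (edgeR adjusted p = 0.027). Over 13 alternatives it ranged from 0.46 to 0.74 with adjusted p from 0.0156 to 0.0892, and 5 lost the call, among them leaving out LPM sample 2 (0.0721), LPM sample 3 (0.0795), CQ sample 2 (0.0698) or CQ sample 3 (0.0892). IGF1R had 117, 142 and 119 CPM in CQ and 148, 129 and 77.7 CPM in LPM, overlapping (log2 0.09 ± 0.21, edgeR adjusted p = 0.75).

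IRS2 had 115, 113 and 96.4 CPM in CQ and 92.6, 87.3 and 60 CPM in LPM. All 3 CQ libraries lay above LPM, but the difference did not pass (log2 0.44 ± 0.17, edgeR adjusted p = 0.0601), and 5 of 13 alternatives called it (0.0248 to 0.165 over all). IRS1 had 10.3, 9.51 and 10.9 CPM in CQ and 10.2, 8.08 and 6.64 CPM in LPM, overlapping (0.3 ± 0.26, 0.364). LPM sample 3 was the lowest of its group for both receptors, both substrates and IGF1. These models all exceed 6 kb, and genes of that length lay at a median of -0.21 (log2) from the group mean in this sample, with those under 2 kb at 0.14. Of the members with models under 2 kb, IGFBP2 and IGFBP6 were highest of the group in this sample and IGFBP3 and IGFBP5 lowest. The part of length in these values was not tested.

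Among binding proteins, IGFBP2 had 13.5, 13.8 and 12.7 CPM in CQ and 487, 492 and 727 CPM in LPM. IGFBP3 had 27.5, 31.9 and 28.5 CPM in CQ and 637, 650 and 573 CPM in LPM. Neither overlapped, and CQ libraries differed little among themselves. The log2 fold changes were -5.41 ± 0.19 for IGFBP2 (edgeR adjusted p = 2.26e-07) and -4.4 ± 0.12 for IGFBP3 (1.12e-07), and both held in all 13 alternatives.

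IGFBP5 had 7.05, 9.15 and 4.92 CPM in CQ and 13.5, 11.8 and 11.1 CPM in LPM. The groups did not overlap, and the log2 fold change of -0.78 ± 0.28 (edgeR adjusted p = 0.0474) lost its call in 7 of 13 alternatives, among them leaving out any LPM sample (0.153, 0.116 and 0.0752) or CQ sample 1 or 3 (0.0726 and 0.0775), over a range of 0.0133 to 0.153. IGFBP6 had 0.0, 0.0 and 2.77 CPM in CQ and 3.47, 4.65 and 5.47 CPM in LPM. The 44 counts in CQ came from sample 3 alone. The log2 fold change was -2.28 ± 1.33 (edgeR adjusted p = 0.19), and -9.45 without that sample (0.000743, range over alternatives 0.000743 to 0.43).

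The sum of binding protein transcripts was lower in CQ. IGFBP2 to IGFBP7 summed to 104 to 115 CPM per kb in CQ and 1390 to 1650 in LPM, as IGFBP7 was 7.48-fold lower too (73.8 ± 4.32 CPM in CQ, 553 ± 89.5 CPM in LPM, edgeR adjusted p = 8.43e-07). The share of IGFBP7 was 57.9 to 61.9% in CQ and 31 to 35.2% in LPM, that of IGFBP2 8.65 to 8.83% and 24.6 to 31.7%, and that of IGFBP3 22.3 to 25.2% and 31.4 to 41.6%. IGFBP4 had 8 counts in CQ and 631 in LPM and was at least 12.1-fold lower.

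Of 86 tested pathway genes 49, or 57.0%, were called in CQ against LPM, 22 higher and 27 lower. Over all genes tested 47.9% were called, 23.1% higher and 24.8% lower, and the counts of each list below stand against that background. IGF2R was 2.83-fold higher (352 ± 13.4 CPM in CQ, 125 ± 39.1 CPM in LPM, edgeR adjusted p = 0.000439). Of 4 tested genes of IGFBP proteases and stanniocalcins the protease gene HTRA1 was 3.24-fold higher and 3 were lower, among them STC2 (2.27-fold) and STC1, which had 0 counts in CQ and 198 in LPM and was at least 3.79-fold lower. GHR, with 5 counts in CQ and 84 in LPM, was the only gene called of 3 in the insulin and growth hormone list, at least 1.61-fold lower. INS belongs to that list and was at 0 counts.

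None of the 12 tested lipid and glucose genes was higher and 7 were lower in CQ, with a median log2 fold change of -0.87. The desaturase gene SCD was 5.6-fold lower (617 ± 47.4 CPM in CQ, 3460 ± 527 CPM in LPM, edgeR adjusted p = 1.39e-06) and INSIG1, a brake on sterol synthesis, 3.08-fold lower. FOXO factors and targets split, 5 higher and 7 lower of 19 with a median of -0.24: CITED2 and BCL2L11 were 4.69-fold and 3.26-fold higher, and CCNG2 and SESN3 4.32-fold and 3.19-fold lower. Members of this list therefore moved both ways in either contrast in which any was called.

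Of 27 PI3K, AKT and mTORC1 genes 10 were higher and 3 lower, with a median of 0.2. GSK3A was 1.87-fold and TSC1, a brake on mTORC1, 1.73-fold higher, and the PI3 kinase subunit genes PIK3R1 and PIK3CD were 2.47-fold and 2.72-fold lower. Among 17 adaptors and inhibitors 5 were higher and 4 lower, with GAB1 (1.88-fold) and SH2B1 (1.55-fold) higher and SOCS2 (1.56-fold) and ENPP1, a membrane protein that inhibits INSR, lower (11.6-fold, 4.25 ± 0.811 CPM in CQ, 49.5 ± 5.26 CPM in LPM).

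Other values moved with this contrast. The 8 cell cycle markers, all called lower, summed to 58.7 to 71.6 CPM in CQ and 525 to 569 CPM in LPM. The fibroblast list summed to 265 to 314 CPM in CQ and 42.3 to 50.1 CPM in LPM, a sum that THY1 (283 ± 26.1 CPM in CQ, 8.7 ± 1.13 CPM in LPM) and FBLN1 (7.4 ± 1.39 and 36.8 ± 4.05 CPM) nearly make up. Only these 2 of its 10 genes could be tested, THY1 being called higher and FBLN1 lower, with DCN, LUM, MFAP5 and COL1A2 at 0 in both. Basal epithelial markers summed to 4270 to 4560 CPM in CQ and 5910 to 6350 CPM in LPM. Their part in the members' differences was not tested.

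**Figure D5:**
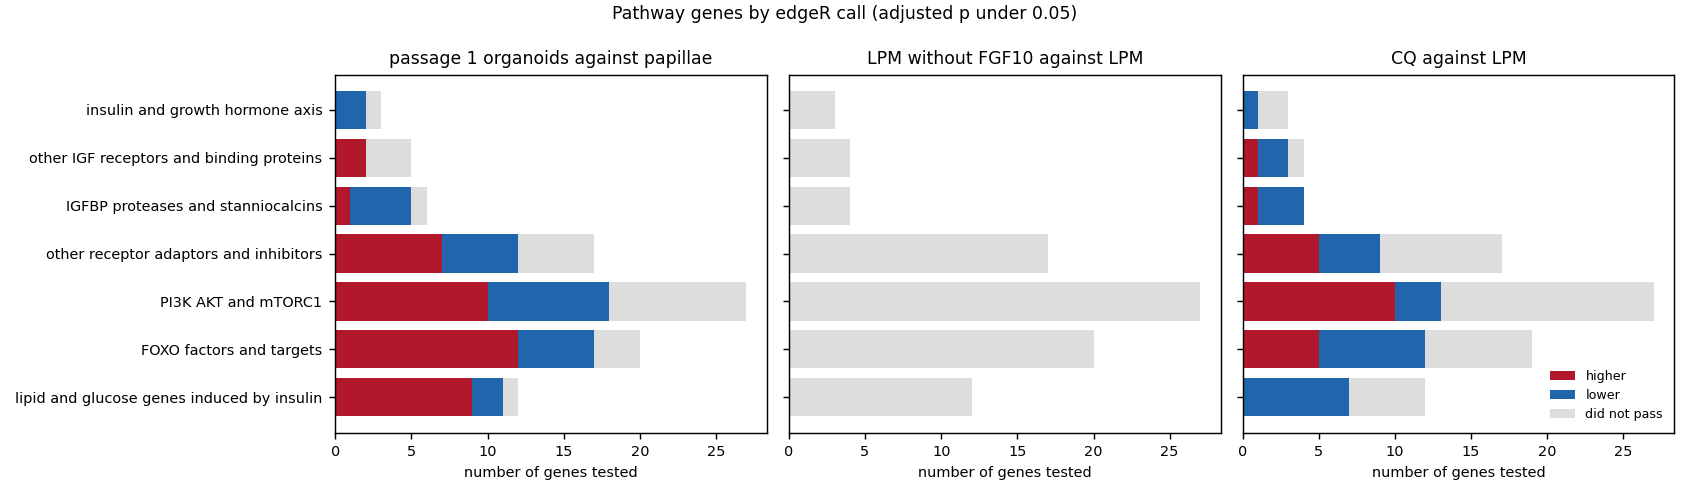
Number of tested genes in each of the 7 pathway lists that were called higher (red), called lower (blue) or did not pass (grey) in each comparison, higher and lower referring to the condition named first. The FGF10 comparison has no called gene, and lipid and glucose genes are mostly higher in organoids against papillae and lower or not passing in CQ against LPM.

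Across the 6 groups, the order of levels can be read only loosely, since CPM were scaled within each pair and the experiments differ. IRS2 had its lowest mean, 24.7 ± 9.3 CPM, in papillae, clear of the next group, and between 80.0 and 115 CPM in all organoid groups, whose neighbours overlapped. INSR stayed between 21.9 and 35.8 CPM, with neighbours overlapping from passage 1 organoids at the top down to organoids without FGF10. IGF1 was highest without FGF10, overlapped between neighbours from both LPM groups through papillae to passage 1 organoids, and was lowest in CQ. IGFBP3 was highest in the LPM libraries beside CQ (620 ± 41.5 CPM), next in LPM of the FGF10 experiment (357 ± 28.6 CPM), and lowest in CQ and papillae, which overlapped. The LPM groups of the media experiments also differed in level for IGFBP2 (569 ± 137 CPM beside CQ, 293 ± 32.7 CPM beside the cultures without FGF10) and IGFBP6 (4.53 ± 1.01 and 0.811 ± 0.107 CPM), with no test across experiments.

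The genes whose log2(CPM + 0.5) followed each member most closely over the 22 libraries, out of 11828 genes with a mean of at least 5 CPM, are given as a description, since libraries share experiments, media and scaling. By the highest Pearson r they were INPP5F, SNX33 and RFFL for IGF1R (0.946 to 0.931), MARVELD2, IARS and SLC35E1 for IRS2, BTBD11, NECTIN1 and COL18A1 for IGF1, TIMP3, TRIB2 and TP63 for IGFBP2, and PTGS2, JAG1 and F2RL2 for IGFBP3. For INSR the match was led by LOC110261018, for IRS1 by C2CD3 and for IGFBP5 by POLE. For IGF2 the nearest were DCN, MYOC and CACNA1H, and for IGFBP6 SMTNL2, MMRN2 and CTSK. The r is given for IGF1R alone, because for each of the other members at least 1 group lay clear of its neighbour in level. Groups further apart in level differed for IGF1R too, with papillae at 61.6 to 84.1 CPM and CQ at 117 to 142 CPM. Its r can therefore also reflect group levels.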

How the data were processed

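Each of the 22 deposited files gives the authors' raw counts per gene, with no normalization. The programme was featureCounts, version 2.0.3 for 16 libraries and 2.0.6 for the 6 of the CQ experiment, per the file headers, run without regard to strand and counting a read for each gene it overlapped. The submitters' processing notes also name FastQC 0.11.9, STAR 2.7.10b and MultiQC 1.14. An entry with no gene name, 0.326 to 0.477% of counts in the CQ experiment, was left out.

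Each comparison was fitted on its own groups with edgeR 4.0.16 in R 4.3.3 (TMM, filterByExpr, quasi-likelihood test, Benjamini-Hochberg adjustment). The SE of an edgeR log2 fold change is its absolute value divided by the square root of the F statistic. It is thus derived from the test and was not estimated separately. Alternatives used DESeq2 1.42.0, limma 3.58.1 voom, other scaling, no filter, a replicate block and each library left out in turn. A voom fit with its own spread per group, the removal of PGPEP1L counts from IGF1R, also in its ratio to INSR, and the CQ floor of 38.1 counts were added after seeing the data. Floors of 3 counts cover counting error only, and the CQ floor also takes in the spread of low counts.

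Members, lists and tests were chosen with earlier results of these data known. For each pathway list the text names at most 2 called genes in either direction, those with the smallest p, and where no gene was called the most abundant. Some genes that this rule picks are not reported here. All members and INS are named. Of 100 pathway genes 99 and of 82 markers 80 were in the files.

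Organoids and papillae share pigs 1 to 5, so replicate numbers pair them, although deviations of the same pig correlated at only 0.03 to 0.09. The edgeR step was tested on simulated data. For organoids against papillae it called 45% of genes changed by 1 log2 unit and 85% of those changed by 2, and for CQ against LPM 53% and 76%. Only 100 genes were changed by each size, all with a mean above 1 CPM, out of 16311 and 13827. That is a far smaller share than was called in these contrasts, so the rates hold for the simulated setting only.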

Additional observations from a re-analysis of the deposited data

Results flagged for a closer look

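Of 20 sets of 5 libraries examined, 1 per member in passage 1 organoids and in papillae, 2 held a library that stood apart from the rest of its group, and chance alone marks about 1 in 20. IRS1 was highest in the organoids of pig 4, at 28.5 CPM, with a gap to the next library of 0.77 of the group's whole range. IGF2 was highest in the papilla of pig 1, at 270 CPM, with a gap of 0.8 of the range. No cause was tested for either.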

How the results depend on the processing

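Over the alternatives no member's called direction reversed. Of 171 refitted member values for organoids against papillae 14 lost and 6 gained a call, of 118 for the FGF10 comparison 0 and 8, and of 118 for CQ 12 and 9. Without FGF10, calls with no filter on low counts numbered 3 members (IGF1 counted here and below), 2 pathway genes and 429 genes. The replicate block gave 3 members and 234 genes, IGFBP2 and IGFBP3 joining IGF1 (adjusted p = 0.0324 and 0.0113). The sources used here do not say whether replicate numbers pair libraries in the FGF10 or the CQ experiment. Deviations of the same number correlated at -0.05 to 0.07 and at -0.02 to 0.03. Organoids and papillae of the same pig correlated at only 0.03 to 0.09, so these values cannot settle the pairing. The block gave 6 members and 6120 genes called in CQ against LPM, adding IRS2 (0.0248) and IGFBP6 (0.0491) and losing IGFBP5 (0.0591). Leaving out each library in turn gave 5 to 8 members called for organoids against papillae, 1 to 2 without FGF10 (with 0 to 2 pathway genes and 125 to 294 genes) and 3 to 4 in CQ. IGFBP5 in organoids against papillae, never called, ranged from -0.44 to 0.49 on the log2 scale. The cause of these shifts was not tested. IGF2 in passage 1 organoids rests on 31 counts, and IGF1 and IGFBP4 in CQ, with 9 and 8 counts, lie under the floor of 38.1 counts.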
